A study of Mus musculus with 6 samples.

Results

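The genes described here are 10 feedback inhibitors of the Ras-Erk pathway, *Dusp4*, *Dusp5*, *Dusp6*, *Dusp7*, *Spry1*, *Spry2*, *Spry4*, *Spred1*, *Spred2* and *Errfi1*. They were chosen by name for their known role and found by gene symbol, and each of the 10 had a row of its own among the 23698 gene rows of every library. SCCc are cultured mouse squamous cell carcinoma cells of the genotype *Hras* G12V with *Tgfbr2* fl/fl knockout, derived from primary keratinocytes of newborn (P0) back skin and used between passages 10 and 15. They were studied to relate mRNA isoforms to translation, and 1 ribosome profiling library and 2 RNA-seq libraries were analysed. The cells are 1 line grown in culture, and nothing in the labels says whether the RNA-seq replicates came from separate cultures. Levels are compared between genes of SCCc and not between conditions, as libraries of wild-type cells were not analysed here.

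Growth factor receptors activate Ras, which drives the kinases Raf, Mek and Erk, and active Erk induces a set of genes whose products switch the pathway down again. Dual-specificity phosphatases of the Dusp family remove the activating phosphates from Erk, Sprouty and Spred proteins act near Ras and Raf, and Errfi1 (Mig6) binds and inhibits the Egf receptor. In the epidermis this pathway supports the proliferation of basal keratinocytes, and activated *Hras* is a classical driver of squamous tumours of mouse skin.

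The footprint library held 3549555 counts on exons, and the RNA-seq libraries held 10707930 (replicate 1) and 14003713 (replicate 2). Footprints are the stretches of mRNA shielded by ribosomes from nuclease, which ribosome profiling reads out. Levels are given as RPKM, reads per kilobase of counted region per 1000000 exon counts of the library, on the coding sequence (CDS) for footprints and on exons for RNA-seq. Among the libraries analysed here footprints came from 1 library with no replicate, so no test between genes or conditions was made. Intervals are 95% and cover counting error only. They take reads as independent, and PCR copies are not, so they can be too narrow. Counts of the RNA-seq replicates differed beyond sampling noise (chi-square of 7.52 per degree of freedom) over the 9863 genes that passed the filters on low values. The log2 ratio of replicate 2 to replicate 1 had an SD of 0.20 over these genes. In bulk samples, fewer cells with a transcript and less RNA per cell cannot be told apart.

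The modified genes and the cell type markers were read first. *Hras* had 1179 and 1619 RNA-seq counts and 128 footprints, and *Tgfbr2* had 3150 and 3958 RNA-seq counts and 193 footprints. Counts over a whole gene show neither a base change nor the loss of single exons, so these values check neither modification. All 8 keratinocyte markers passed the filters, with summed RNA-seq levels of 14458 and 16573 RPKM in replicates 1 and 2 and 9019 RPKM in footprints. The most abundant was the basal keratin *Krt5*, at 7965 and 9483 RPKM. Of 5 differentiation markers 4 had a row, with sums of 118 and 120.0 RPKM in RNA-seq and 88.3 RPKM in footprints, led by the envelope gene *Ivl* at 104 RPKM in each replicate and 73.1 RPKM in footprints, while *Lor* had 2 counts in each. Markers of other cells were low. The 8 fibroblast markers summed to 10.3 and 16.0 RPKM in RNA-seq and 0.87 RPKM in footprints, led by *Col3a1* at 3.89 and 5.49 RPKM. The 4 immune markers summed to 3.75 and 11.97 RPKM, led by *Lyz2* at 2.71 and 8.56 RPKM, with 0 footprints, and *Cd3e* was at 0 in every library. The 6 melanocyte markers summed to 5.49 and 5.65 RPKM in RNA-seq, mostly *Pmel* at 5.03 and 5.19 RPKM, and to 1.38 RPKM in footprints, of which *Pmel* gave 0.30 RPKM, and *Dct*, *Tyr* and *Mlana* had 0 footprints. The 3 endothelial markers summed to 0.51 and 0.59 RPKM in RNA-seq and 0.91 RPKM in footprints, led by *Kdr* at 0.35 and 0.32 RPKM, and *Pecam1* and *Cdh5* had 0 footprints. The fibroblast and immune sums were higher in RNA-seq replicate 2, and their part in the members' replicate differences was not tested.

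Of the 10 feedback inhibitors, 8 passed the filters, and *Dusp4* and *Spry4* did not. Among the 8, RNA levels spanned 30.7-fold, from *Dusp5* to *Dusp7*, with a median of 21.3 RPKM against 15.3 RPKM over all genes passing. Their median footprint level was 16.4 RPKM, against 19.1 RPKM over all genes. *Dusp6* and *Dusp7* together held 61.3% and 65.4% of the members' RNA-seq counts in replicates 1 and 2, and 68.1% (exact interval 65.4 to 70.7%) of their footprints on the CDS. All 10 members together gave 1015 and 1072 of every 1000000 RNA-seq counts on exons and 376 of every 1000000 footprints on the CDS. These values cover different regions and are not per length, so they do not compare footprints with RNA.

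**Figure D1:**
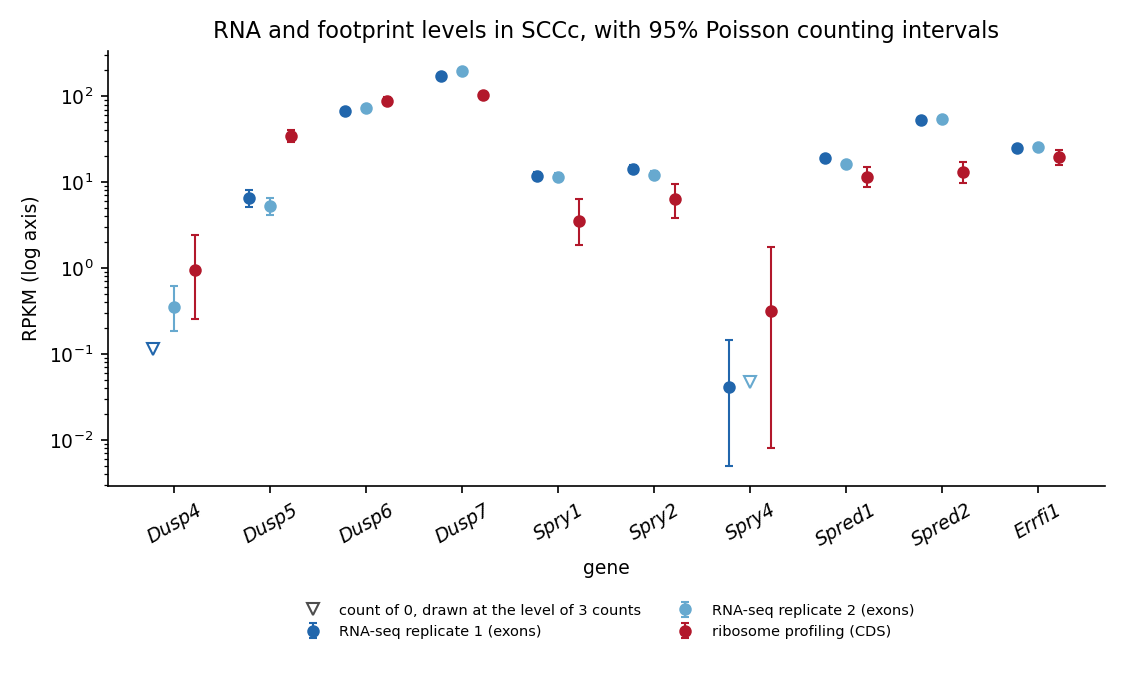
RPKM on a log axis for the 10 genes in RNA-seq replicates 1 and 2 (on exons) and in ribosome profiling (on the CDS), with 95% Poisson counting intervals; open triangles mark a count of 0 and are drawn at the level that 3 counts would give. *Dusp7* and *Dusp6* lie highest in all 3 libraries, *Dusp4* and *Spry4* lie lowest, and *Dusp5* has 34.5 RPKM of footprints over 6.58 and 5.28 RPKM of RNA.

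*Dusp7* encodes a cytoplasmic phosphatase of Erk and was the most abundant member. Its RNA-seq levels were 170 and 195 RPKM, from 4625 and 6931 counts, at percentile 96.7 of the genes passing. It had 463 footprints on the CDS, a level of 103 RPKM (interval 93.9 to 113) at percentile 85.1. *Dusp6*, the classical cytoplasmic Erk phosphatase, had RNA-seq levels of 68.1 and 73.6 RPKM, and *Dusp7* RNA was 2.57-fold higher on average. Its 355 footprints gave 87.6 RPKM (interval 78.6 to 97.1), and the footprint level of *Dusp7* was 1.18-fold that of *Dusp6* (exact interval 1.02 to 1.36). The pair thus differed beyond the replicate values in RNA and, by a smaller fold, beyond counting error in footprints.

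*Dusp5* encodes a nuclear phosphatase of Erk. It had 81.3 and 85.5 RNA-seq counts, levels of 6.58 and 5.28 RPKM, and stood at RNA percentile 20.7 among the genes passing, or 49.6 among all rows with an RNA-seq count. Its 141 footprints gave 34.5 RPKM (interval 29.0 to 40.7), at percentile 64.6 among the genes passing. Among the 10 members, *Dusp5* ranked 8 in RNA and 3 in footprints. The counted exons of *Dusp5* were 1155 nt against a CDS of 1152 nt, so its RNA-seq count held no 5′UTR and 3 nt of 3′UTR, of 1109 nt annotated. The other 7 members that passed took between 16.2% and 69.9% of their RNA-seq counts from the 3′UTR. An annotated antisense gene overlaps *Dusp5* by 547 nt. The sources used here do not state whether counting used strand, so reads of the antisense gene cannot be told apart. *Dusp4*, a nuclear phosphatase of the same family, had 0 and 12 RNA-seq counts and 4 footprints. In replicate 1 the count of 0 has an exact upper limit of 0.14 RPKM, and in replicate 2 the level was 0.35 RPKM (interval 0.18 to 0.62).

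The Sprouty genes were lower than *Dusp6* and *Dusp7* in RNA and footprints. *Spry1* had RNA-seq levels of 11.8 and 11.5 RPKM and *Spry2* had 14.3 and 12.1 RPKM. On the CDS, *Spry1* had 11.9 footprints, a level of 3.56 RPKM (interval 1.86 to 6.29), and *Spry2* had 21.5 footprints, a level of 6.41 RPKM (interval 3.88 to 9.57). The replicate RNA values of *Spry1* lay below those of *Spry2*, but their counting intervals overlapped in both, at 10.5 to 13.2 and 12.8 to 16.0 RPKM in replicate 1 and 10.4 to 12.7 and 10.9 to 13.4 RPKM in replicate 2. In footprints the ratio of *Spry2* to *Spry1* was 1.80, with an interval of 0.82 to 3.88 that includes 1. An annotated gene on the opposite strand overlaps *Spry1* by 710 nt, with the same uncertainty. *Spry4* had 2 and 0 RNA-seq counts and 1 footprint, so it was at or under the 3 counts that a library can show.

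The Spred proteins are related to Sprouty and bind neurofibromin, a brake on Ras. *Spred2* ranked 3 among the members in RNA, with 52.6 and 54.1 RPKM, and *Spred1* had 19.1 and 16.1 RPKM, so that *Spred2* RNA was 3.03-fold higher on average. Their footprint levels were 13.2 RPKM for *Spred2* (interval 9.67 to 17.4) and 11.6 RPKM for *Spred1* (interval 8.82 to 15.0), a ratio of 1.14 with an interval of 0.76 to 1.68 that includes 1. Of the CDS annotated over all transcripts of a gene, 72.4% (1031 of 1424 nt) was counted in *Spred2*, against 96.3% in *Dusp7* and 100% in the other members. Against the 1230 nt CDS of the single *Spred2* transcript whose sequence is shown, the counted length was 83.8%. *Errfi1* had RNA-seq levels of 24.7 and 25.4 RPKM and 95.9 footprints, a level of 19.5 RPKM (interval 15.8 to 23.9).

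The members' RNA levels were ordered *Dusp7*, *Dusp6*, *Spred2*, *Errfi1*, *Spred1*, *Spry2*, *Spry1* and *Dusp5*, with no overlap of replicate values between neighbours, and then *Dusp4* and *Spry4*, whose values overlapped. In footprints the order was *Dusp7*, *Dusp6*, *Dusp5*, *Errfi1*, *Spred2*, *Spred1*, *Spry2*, *Spry1*, *Dusp4* and *Spry4*. Counting intervals of neighbours in that order overlapped except between *Dusp6* and *Dusp5* and between *Dusp5* and *Errfi1*, although the ratio of *Dusp7* to *Dusp6* given above lay beyond counting error. Log2 ratios of RNA-seq replicate 2 to replicate 1 lay between −0.32 for *Dusp5* and 0.20 for *Dusp7* among the 8 members, against a median of −0.01 over all genes.

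Translational efficiency relates footprints to RNA. It is given on the log2 scale as CDS footprint RPKM divided by the mean exon RPKM of RNA-seq, relative to the median of the 9863 genes passing, whose values had an SD of 1.45. Of the 8 members, 4 lay more than 2-fold below the median, where 21.1% of all genes did, and 1 lay more than 2-fold above, where 20.8% did. The members' median was −1.06, and 7 of 8 lay below 0, where by the definition of the median 4931 of all 9863 genes lay above it. *Dusp6*, at −0.04, is among the 7, and its interval of −0.20 to 0.12 includes 0. These counts describe a list chosen with earlier results known, and 8 genes are few.

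**Figure D2:**
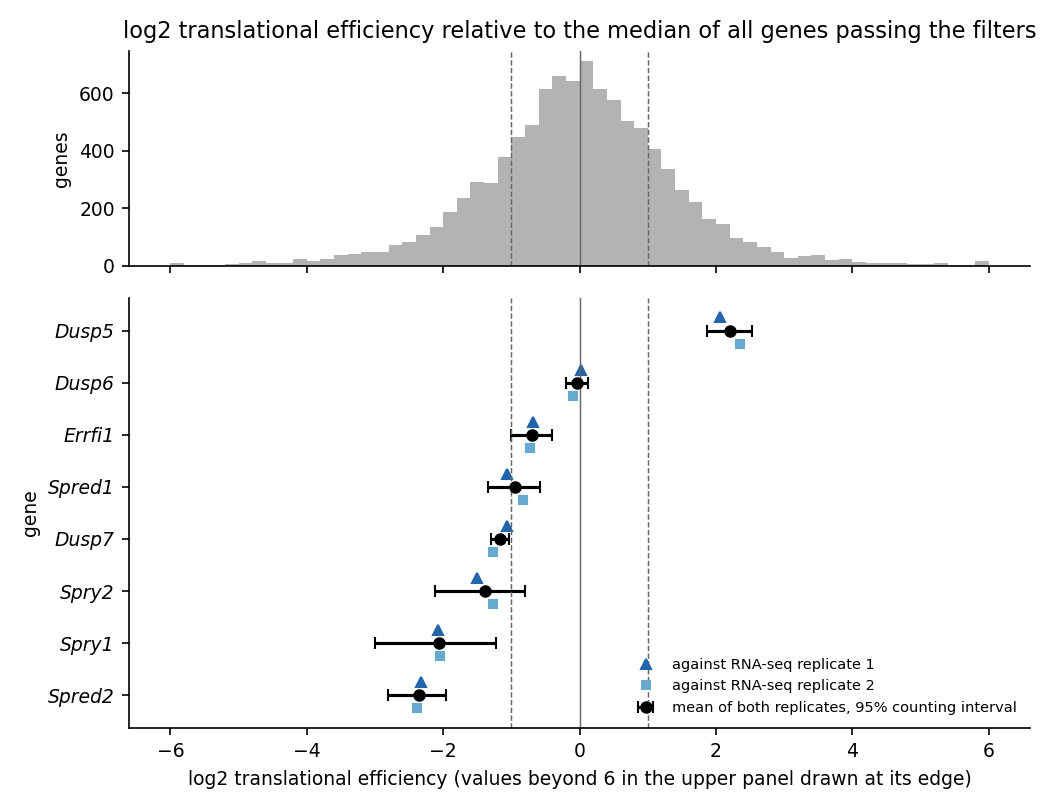
Upper panel, number of genes by log2 translational efficiency for all genes passing the filters; lower panel, the 8 members, with circles for the value against the mean of both RNA-seq replicates and its 95% counting interval, and triangles and squares for the value against replicate 1 or 2 alone. Dashed lines mark 2-fold either side of the median of all genes; *Dusp5* lies at 2.20, *Dusp6* at −0.04 and *Spred2* at −2.35.

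The 3 phosphatases that passed spread widely. *Dusp5* had a log2 translational efficiency of 2.05 against RNA-seq replicate 1 and 2.35 against replicate 2, and 2.20 against their mean (interval 1.86 to 2.53), at percentile 94.8. *Dusp6* had 0.02 and −0.10, and −0.04 against the mean (interval −0.20 to 0.12), at percentile 48.8. *Dusp7* had −1.06 and −1.27, and −1.16 against the mean (interval −1.30 to −1.03). The intervals of the 3 genes did not overlap. *Dusp6* exceeded *Dusp7* by 1.13 (interval 0.92 to 1.33) and *Dusp5* exceeded *Dusp6* by 2.24 (interval 1.88 to 2.59) on the log2 scale. Without division by length these differences were 0.84 and 3.52, both outside their intervals.

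*Spred2* had the lowest value of the members, though it was not resolved from *Spry1*, which exceeded it by 0.29 (interval −0.63 to 1.22). Its log2 values were −2.33 and −2.38 against replicates 1 and 2, and −2.35 against the mean (interval −2.81 to −1.96), at percentile 4.75, and only its counted CDS enters this value. *Spred1* had −1.06 and −0.83, and −0.95 against the mean (interval −1.34 to −0.57), so its side of the 2-fold limit depended on the replicate. It also depended on the processing, with −1.20 for RNA-seq counted over the CDS and −2.21 without division by length. *Spred1* exceeded *Spred2* by 1.41 (interval 0.85 to 1.96), but by 1.16 with RNA-seq counted over the CDS and by 0.26, under that interval, without division by length.

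*Spry1* and *Spry2* also lay past 2-fold below the median, with less depth. *Spry1* had −2.07 and −2.05, and −2.06 against the mean (interval −3.00 to −1.23). *Spry2* had −1.50 and −1.27, and −1.39 against the mean (interval −2.12 to −0.80), so 2-fold lies within its interval. The difference between them, 0.67 (interval −0.36 to 1.70), was not detectable at this depth. *Errfi1* had −0.68 and −0.73, and −0.70 against the mean (interval −1.01 to −0.40), within 2-fold of the median.

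Among the other genes with at least 30 counts in each library, the 3 nearest to *Dusp5* by Euclidean distance over the log2 RPKM of the 3 libraries were *Tnfaip2* (distance 0.18), *Spdl1* (0.18) and *Elovl6* (0.21). The 3 nearest to *Spred2* were *Man2a2* (distance 0.12), *Tmem192* (0.13) and *Nf2* (0.17). The search covered 7849 genes for each.

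The base context of the start codon and features of the untranslated regions were read from GENCODE M21 transcripts, whose build GRCm38 is that of the deposited files. The phosphatases of high, middle and low translational efficiency and *Spred2*, the member with the lowest value, are shown. Each line gives the last 12 nt of the annotated 5′UTR and the start of the CDS, 5′ to 3′ on the plus strand, with the start codon and the base 3 nt upstream of it in capitals.
Dusp5: ggtggcagcGgcATGaaggtcacgtcgctc
Dusp6: agctcgaccCccATGatagatacgctcaga
Dusp7: cccgggatcCccATGaaaaaccagctccgc
Spred2: gtgaacaagAaaATGaccgaagaaacacac
The genes lie at chr19:53529109-53542431 (*Dusp5*), chr10:99263231-99267489 (*Dusp6*), chr9:106368632-106375724 (*Dusp7*) and chr11:19924375-20024026 (*Spred2*). A purine 3 nt upstream of the start codon, a feature looked at after the data were seen, was present in 4 of the 8 members that passed and in 87.1% of 9117 genes passing. The 4 are *Dusp5*, *Spred1*, *Spred2* and *Errfi1*, so the members with the highest and the lowest value of translational efficiency both had one.

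An ATG upstream of the start codon was present in the annotated 5′UTR of 6 of the 8 members that passed and in 52.7% of 8761 genes passing. Presence depends on length, and the 5′UTRs of these 6 were 272 nt (*Errfi1*) to 784 nt (*Spry1*) long. The median over these genes was 185 nt, so the 2 shares are not matched for length. *Spred2* and *Spry1* had 6 each, or 12.3 and 7.65 per 1000 nt, and *Errfi1* had 3, or 11.03 per 1000 nt. *Dusp6*, *Spred1* and *Spry2* had 1 each, or 2.17, 2.85 and 3.53 per 1000 nt, and *Dusp5* and *Dusp7* had 0. The median over all genes was 2.67 per 1000 nt. The annotated 5′UTR of *Dusp7* was 88.0% G and C, at percentile 99.6. The AU-rich pentamer ATTTA was present in the 3′UTR of 7 of the 8 members that passed, all but *Dusp7*, and in 70.4% of 8852 genes passing. It was most frequent in *Errfi1* and *Spred1*, at 2.89 and 2.77 per 1000 nt, against a median of 1.37 over all genes.

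Footprints on the 5′UTR were then compared with those on the CDS. Over 7055 genes passing the filters whose counted 5′UTR had 60 nt or more, with at least 20 footprints on 5′UTR and CDS, the median share of these footprints on the 5′UTR was 5.13%. This share was chosen after the data were seen and no limit was set on it. *Spred2* had 39.7 footprints on the 5′UTR and 48.4 on the CDS, a share of 45.1% (Wilson interval 35.5 to 55.8%) at percentile 98.2. Only the counted 72.4% of its annotated CDS enters this share, and footprints on the rest would lower it. In RNA-seq the 5′UTR of *Spred2* took 9.68% and 10.8% of the counts on 5′UTR and CDS, and 29.3% of the length.

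*Spred1* had 36.6 footprints on the 5′UTR and 59.0 on the CDS, a share of 38.3% (interval 29.4 to 48.5%) at percentile 97.3, against 2.35% and 3.65% in RNA-seq. *Errfi1* had a share of 23.2% (interval 16.7 to 31.3%) at percentile 90.8, against 2.03% and 3.29% in RNA-seq. *Spry1*, with 7.94 footprints on the 5′UTR, had 40.1% (interval 21.9 to 61.3%) against 3.78% and 3.19%, and was just under the footprint minimum. In these 4 genes the footprint share was above both RNA-seq shares beyond its counting interval, and the same held for *Dusp7*. Their counted 5′UTR was not that of the transcript read for upstream ATGs. It was 654 nt against 351 nt in *Spred1*, 500 against 784 nt in *Spry1*, 427 against 489 nt in *Spred2* and 254 against 272 nt in *Errfi1*.

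*Dusp6* and *Spry2* differed from them. *Dusp6* had 94.4 footprints on the 5′UTR, a share of 20.99% (interval 17.4 to 24.9%) at percentile 88.8, with 24.5% and 24.1% in RNA-seq. *Spry2* had 30.4% (interval 16.1 to 46.6%), with 29.6% and 29.0% in RNA-seq. In both genes the RNA-seq shares lay within the footprint interval. *Dusp7* had 18.5 footprints on the 5′UTR, a share of 3.84% (interval 2.38 to 5.83%) at percentile 41.3, against 0.040% and 0.059% in RNA-seq, from 1.00 and 2.32 counts on its 166 nt of 5′UTR. Of the 6 members with enough footprints for the comparison, 4 had a footprint share above both RNA-seq shares beyond the interval, where 34.2% of the 7055 genes did. The medians over these genes were 5.13% in footprints and 3.11% and 4.04% in RNA-seq. This count too was chosen after the data were seen.

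**Figure D3:**
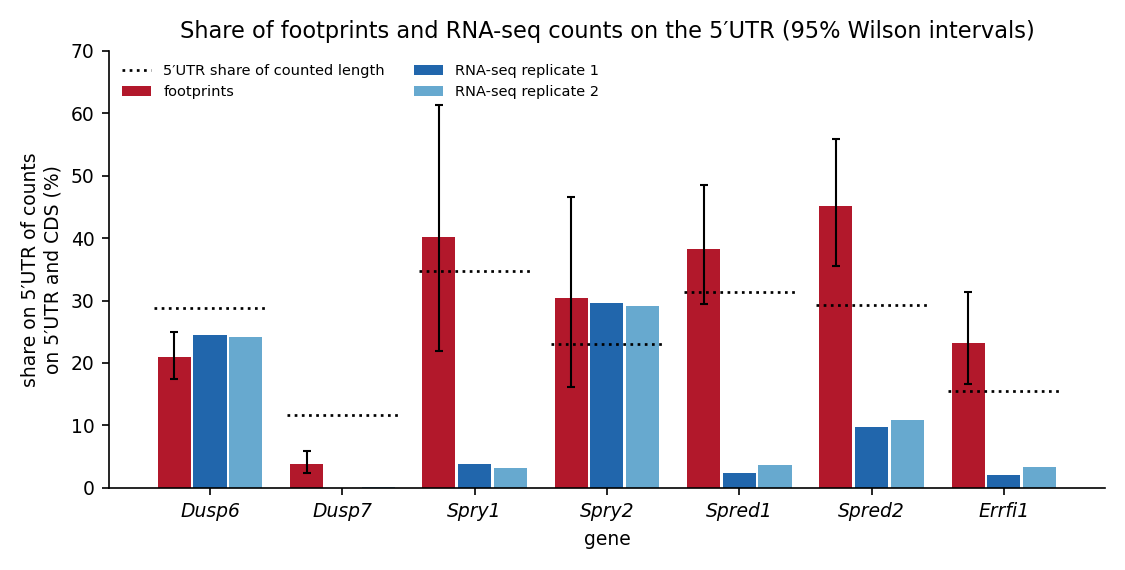
Share on the 5′UTR, in percent of counts on 5′UTR and CDS, for 7 genes; bars show footprints with 95% Wilson intervals and RNA-seq replicates 1 and 2, and dotted lines show the 5′UTR share of counted length. Footprint shares exceed RNA-seq shares beyond their intervals in *Dusp7*, *Spry1*, *Spred1*, *Spred2* and *Errfi1*, and in *Dusp6* and *Spry2* the RNA-seq shares lie within the interval.

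Density per length was compared in the 3 members with at least 30 footprints on the 5′UTR and 10 RNA-seq counts there. The footprint minimum is set on the numerator of the ratio and favours genes dense on the 5′UTR, so no count is drawn from it. The median log2 ratio of 5′UTR to CDS density was −0.99 over 1045 such genes and −1.35 over the 7055 genes above. The log2 ratio of densities was 0.99 (interval 0.37 to 1.64) in *Spred2*, 0.44 (interval −0.17 to 1.08) in *Spred1* and −0.60 (interval −0.95 to −0.28) in *Dusp6*. *Errfi1*, with 29.1 footprints on the 5′UTR, was just short of the minimum, and its ratio was 0.72 (interval 0.07 to 1.33). Divided by the same ratio in RNA-seq, the log2 values were 2.84 in *Spred2* (interval 2.20 to 3.49), 4.34 in *Spred1* (3.54 to 5.14), 3.45 in *Errfi1* (2.65 to 4.26) and −0.27 in *Dusp6* (−0.62 to 0.08), with intervals for the counting error of footprints and RNA-seq together. The 5′UTR held 28.6 RNA-seq counts over both replicates in *Spred1* and 28.4 in *Errfi1*, against 194 in *Spred2*. For *Dusp7* this division turned −1.72 into 6.32 (interval 4.63 to 8.01), on 3.32 RNA-seq counts. It gave 4.22 for *Spry1* (interval 2.69 to 5.75), on 7.94 footprints and 12.8 RNA-seq counts. In *Spry2*, with 9.38 footprints on the 5′UTR, it did not raise the ratio, which went from 0.54 to 0.07 (interval −1.07 to 1.21). The files hold counts per region and no positions, so footprints on upstream ATGs were not counted.

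On the 3′UTR, footprints were few while RNA-seq counts were many. *Dusp7* had 25.5 footprints there, or 5.04% of its footprints over the 3 regions, and the others with a counted 3′UTR of at least 30 nt had 0 to 3.39. The median over all genes was 1.10%. In RNA-seq the 3′UTR of *Dusp7* took 45.4% and 43.0% of the counts, and that of *Spred1* 69.9% and 67.7%.

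Other genes of the pathway were described by the same counts. Of 24 other negative regulators 21 passed, with a median log2 translational efficiency of −0.19, 3 above 1 and 3 below −1. In the same families, *Dusp9* had the highest value, 2.07, with RNA-seq levels of 5.18 and 4.62 RPKM. *Dusp3* had 1.41, *Dusp14* had 1.00, *Dusp10* had 0.46, *Dusp8* had −0.19, *Dusp1* had −0.21, *Spred3* had −0.74 and *Dusp16* had −1.02. *Dusp2*, with 7 and 5.80 RNA-seq counts, and *Spry3*, at 0 in all 3 libraries, did not pass. *Lrig1*, which promotes receptor turnover, had the lowest value, −1.96, and *Pebp1*, an inhibitor of Raf, the highest RNA level, 163 and 180 RPKM.

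Of 25 genes from receptors to Erk all 25 passed, with a median of −0.05, 4 above 1 and 6 below −1. The exchange factor gene *Sos2* had the lowest value, −2.14, and the Mek gene *Map2k2* the highest RNA level, 171 and 197 RPKM. *Hras* had 0.02 and *Tgfbr2*, outside this list, had −1.32. Of 9 ligand genes 5 passed, with a median of 1.68, 4 above 1 and 0 below −1. The Egf receptor ligand *Ereg* had the highest value, 3.13, and *Epgn* the lowest, 0.92, with the highest RNA level, 71.7 and 67.2 RPKM.

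Of 27 names of Erk-induced factors and targets, 26 had a row (*Ccn1* is a newer name of *Cyr61*) and 23 passed, with a median of 0.74, 9 above 1 and 1 below −1. The AP-1 gene *Fosl1* had the highest value, 3.97, and among those with at least 30 counts in each library *Etv4* had the lowest, −0.70. The cyclin gene *Ccnd1* had the highest RNA level, 187 and 177 RPKM. All 6 RNA turnover factors passed, with a median of 0.20 and 2 above 1, with *Hnrnpd* highest at 3.83, *Zfp36* lowest at −0.35 and *Zfp36l2* highest in RNA at 143 and 128 RPKM. The feedback inhibitors had the lowest median of these 6 lists, a difference that was not tested.

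**Figure D4:**
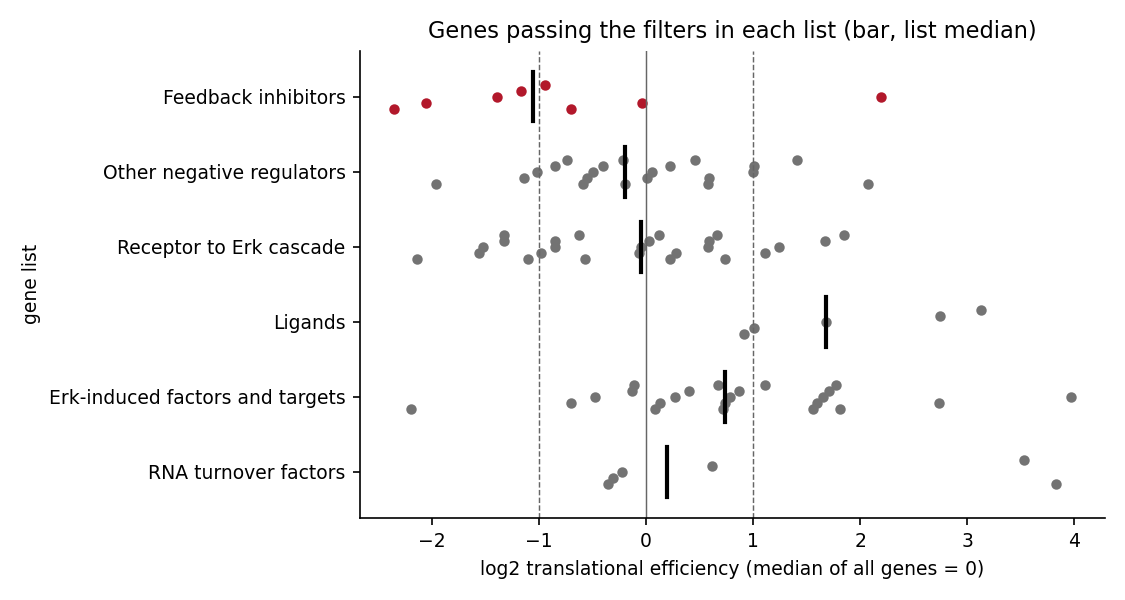
log2 translational efficiency of each gene passing the filters, by list, with the list median as a bar; 0 is the median of all genes and dashed lines mark 2-fold either side. The feedback inhibitors have a median of −1.06 and the ligands of 1.68.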

How the data were processed

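The authors trimmed reads, aligned them to GRCm38 with STAR 2.6.1 and removed ribosomal, mitochondrial and tRNA reads from ribosome profiling with Bowtie2 2.4.1. Estimated counts per gene on exons, CDS, 5′UTR and 3′UTR, which need not be whole, were deposited by the authors from Plastid. The deposited RPKM values use library totals larger than the exon counts, so RPKM was computed again from exon sums. Exon counts were 1.75% of the total behind the deposited values in ribosome profiling, and 21.1% and 21.3% in RNA-seq replicates 1 and 2. The annotation release of the counts is not given in the sources used here. A gene passed with a base mean above 25 (DESeq2 1.42.0 size factors on rounded counts), RPKM above 1 in each RNA-seq library and footprints on a counted CDS. Values were computed with pandas 2.3.3 and intervals with scipy 1.17.1 on rounded counts: exact Poisson for levels, exact binomial for ratios, Wilson for 5′UTR shares, and a normal approximation for differences in translational efficiency and for 5′UTR ratios over RNA-seq. Alternatives left out each RNA-seq replicate and changed filters, pseudocount, length, counted region and scaling (edgeR 4.0.16 TMM, DESeq2). The members and lists were chosen with earlier results of these data known. Named were all members, *Hras*, *Tgfbr2*, list genes of the same families, each list's extremes among genes with at least 30 counts in each library, the leading and absent markers, and the 3 nearest genes of the extreme members; 1 gene under this rule is not reported here. Pairs of members set side by side were chosen after their values were seen.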

Additional observations from a re-analysis of the deposited data

How the results depend on the processing

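The members' median log2 translational efficiency was −1.06, and it lay between −1.06 and −1.05 without either RNA-seq replicate. It was −1.003 with a pseudocount of 1 RPKM, −1.12 with RNA-seq counted over the CDS, −1.34 without division by length, −1.08 with no filter but a count in all libraries, −1.06 with the filter on the deposited RPKM, and −0.89 for the 7 members whose annotated CDS, joined over transcripts, was counted to 80% or more, all but *Spred2*. With at least 100 counts in every library, 2 members passed, *Dusp6* and *Dusp7*, with a median of −0.99, 0 above 2-fold and 1 below, since fewer genes enter. In the other settings 1 member, *Dusp5*, lay past the limit above the median, and 3 to 6 members lay past it below, with 6 at a 1.5-fold limit. The share of all genes past a limit is given only for 2-fold in the main setting, at 20.8% above and 21.1% below. Counts past a limit under the other settings and at 1.5-fold therefore cannot be set against all genes. Members below 0 were 7 of 8 in the main setting and 6 of 8 without RNA-seq replicate 2. They were also 6 of 8 with RNA-seq counted over the CDS, and 5 of 7 with 80% or more of the CDS counted.

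For single members, *Dusp5* ranged from 2.04 to 3.21, *Spred2* from −2.47 to −2.25, *Spry1* from −2.45 to −1.79, *Spry2* from −1.52 to −1.25 and *Dusp7* from −1.56 to −1.04, so the 5 members past 2-fold kept their side in each setting that could move it and where they passed. Values relative to the median of all genes hardly depend on library scaling, so TMM and DESeq2 factors could not move them and are not counted as support. *Spred1* ranged from −2.21 to −0.83, and *Dusp6* from −0.43 to 0.17, on both sides of 0. Values without a replicate are left out of the counts that follow, since the spread comes from the replicates. Under the remaining settings, 30 log2 translational efficiencies of single members moved by less than their spread and 19 by more. Their RNA percentiles moved by more in 15 of 16 values, and were higher for all 8 among all rows with an RNA-seq count. Division by RNA-seq moved the log2 5′UTR density ratio of *Dusp6* from −0.60 to −0.27, just past its interval. That of *Spry2* moved from 0.54 to 0.07, within its interval. In the other members that passed with a counted 5′UTR it rose past the interval by more. How often this held over all genes was not computed. Over 7055 genes the median 5′UTR share was 3.11% and 4.04% in RNA-seq, against 12.5% of length. No paired analysis was possible because there was 1 condition and no result comes from a test. Depth limits *Spry1*, with 11.9 footprints on the CDS, and *Spry2*, with 21.5, most among the members that passed.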
